A study of Mus musculus with 18 samples.

Results

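The 10 genes described here encode machinery of necroptosis and pyroptosis, the lytic forms of programmed cell death: Zbp1, Ripk1, Ripk3, Mlkl, Gsdmd, Gsdme, Nlrp3, Pycard, Aim2 and Nlrc4. They were taken by gene symbol from the 25124 genes in each deposited count table, and all 10 were found. RNA-seq was performed on brown adipose tissue (BAT) and on epididymal (eWAT) and inguinal (iWAT) white fat of male wildtype (WT) and caspase-6 knockout (KO, here C6KO) mice. There were 3 libraries of each genotype in each depot, 18 in all, prepared as biological replicates. Every mouse was on a C57BL/6J background, received a high fat diet (HFD, 60% fat) for 12 weeks from an age of 10 to 14 weeks, and was fasted before tissue collection, so no lean or chow-fed group enters any comparison below. The C6KO allele is constitutive and present in all cell types, and WT and C6KO mice came from matings of heterozygous parents. The question addressed is whether mRNA of the lytic death machinery differs between WT and C6KO adipose tissue under HFD, and how it is distributed over the depots.

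In necroptosis, the nucleic acid sensor ZBP1 or the death receptor kinase RIPK1 engages the kinase RIPK3, which phosphorylates the pseudokinase MLKL so that it permeabilises the plasma membrane. In pyroptosis, sensors such as NLRP3, AIM2 and the NAIP-dependent NLRC4 assemble inflammasomes, usually through the adaptor ASC (gene Pycard), and the caspase-1 that they activate cleaves gasdermin D (Gsdmd), whose N-terminal part forms membrane pores. Gasdermin E (Gsdme, also called Dfna5) is cleaved by caspase-3 instead, caspase-6 has itself been tied to ZBP1-driven cell death, and in obese adipose tissue inflammasome genes are best known from macrophages.

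The genes lie on 10 different chromosomes of the mm10 build, each value being the sum of exonic counts of a gene. Zbp1 is at chr2:173206612-173218922 (minus strand, 8 exons in the listed transcript), Ripk1 at chr13:34002363-34035170 (plus), Ripk3 at chr14:55784995-55788857 (minus, 10 exons) and Mlkl at chr8:111311798-111338205 (minus, 11 exons). The sensors are at chr11:59541569-59566953 (Nlrp3, plus, 11 exons in the transcript of the iWAT table), chr1:173420604-173466036 (Aim2, plus, 12 exons) and chr17:74426295-74459108 (Nlrc4, minus, 9 exons). Pycard is a compact gene at chr7:127991373-127993867 (minus, 3 exons), Gsdmd is at chr15:75862339-75867404 (plus, 11 exons) and Gsdme at chr6:50207401-50261769 (minus, 10 exons). In the GENCODE annotation, 485 exonic bases of Pycard overlap the unclassified gene Gm45205 on the other strand, and 241 exonic bases of Ripk1 overlap Serpinb6a on the other strand, with a further 511 shared with the pseudogene Gm17084. Whether counting used strand is not given in the sources used here, so counts over those bases cannot be assigned with certainty.

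Library totals were 7803108 to 12428683 counts in BAT, 16506034 to 19043523 in iWAT and 16717201 to 19139694 in eWAT, so low genes are measured least precisely in BAT. Casp6, the deleted gene, showed no overlap between the genotypes in any depot, at 6.55 ± 1.28 against 18.7 ± 2.27 counts per 1000000 (CPM) in iWAT, 5.65 ± 1.22 against 20.4 ± 2.26 in eWAT and 5.12 ± 1.93 against 14.6 ± 3.82 in BAT (SD, n = 3). CPM were computed on library sizes scaled by the trimmed mean of M values (TMM). Its edgeR adjusted p was 0.0132 in eWAT, 0.0751 in iWAT and 0.0671 in BAT, so even the deleted gene passed the threshold in eWAT alone. The remaining Casp6 counts are totals over the gene and do not show which exons they cover. Brown adipocyte markers summed to 5656 to 12690 CPM in BAT and to 16.8 to 33.2 in iWAT. Some libraries stood apart. In iWAT, C6KO-3 had a summed level of 15 macrophage markers of 1784 CPM, against 640 and 681 in C6KO-1 and C6KO-2. In BAT, WT-2 had 29030 CPM of skeletal muscle markers and 106 CPM of B cell markers, against at most 1278 and 4.65 CPM in WT-1 and WT-3 and 340 to 5687 CPM of muscle markers in C6KO. In eWAT, WT-2 had 925 Zbp1 counts against 211 and 237 in the other WT libraries. Where leaving out one of them changed a call of a member, or moved a C6KO against WT estimate by over 1.5 times, this is stated beside the result.

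Estimates were below 0 for 9 of 10 members in iWAT (46.2% of all genes), for 9 of 10 in eWAT (50.9%) and for 9 of 9 in BAT (53.9%), but edgeR called no member. A call required an adjusted p under 0.05 and a fold change of at least 1.5. In iWAT 0 of 10 members were called where 0.0275% of all 14533 genes tested were, in eWAT 0 of 10 against 0.746% of 14889, and in BAT 0 of 9 against 1.24% of 13595. Gsdme, at 4 to 31 counts per library, did not pass the low-count filter in BAT. With an unadjusted p under 0.05, the members lower in C6KO were 3 of 10 in iWAT (9.29% of all genes), 4 of 10 in eWAT (7.82%) and 2 of 9 in BAT (8.64%), and no member was higher, where 7.25%, 9.81% and 4.56% of all genes were. DESeq2, used as a second test, called 2 members lower in iWAT (Pycard and Nlrc4, against 3.53% of all genes), 3 in eWAT (Gsdmd, Nlrp3 and Aim2, against 1.22%) and 1 in BAT (Pycard, against 2.62%). All 3 C6KO libraries lay below all 3 WT libraries for 4 members in iWAT (Gsdmd, Gsdme, Pycard and Nlrc4, 12.2% of all genes), for 7 in eWAT (Zbp1, Ripk3, Gsdmd, Nlrp3, Pycard, Aim2 and Nlrc4, 11.2%) and for 3 in BAT (Pycard, Aim2 and Nlrc4, 12.1%). The median log2 fold change of the members tested was -0.59 for iWAT (all genes 0.03), -0.48 for eWAT (all genes -0.01) and -0.76 for BAT (all genes -0.03). In whole tissue, fewer cells of a type and less RNA per cell cannot be told apart.

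**Figure D1:**
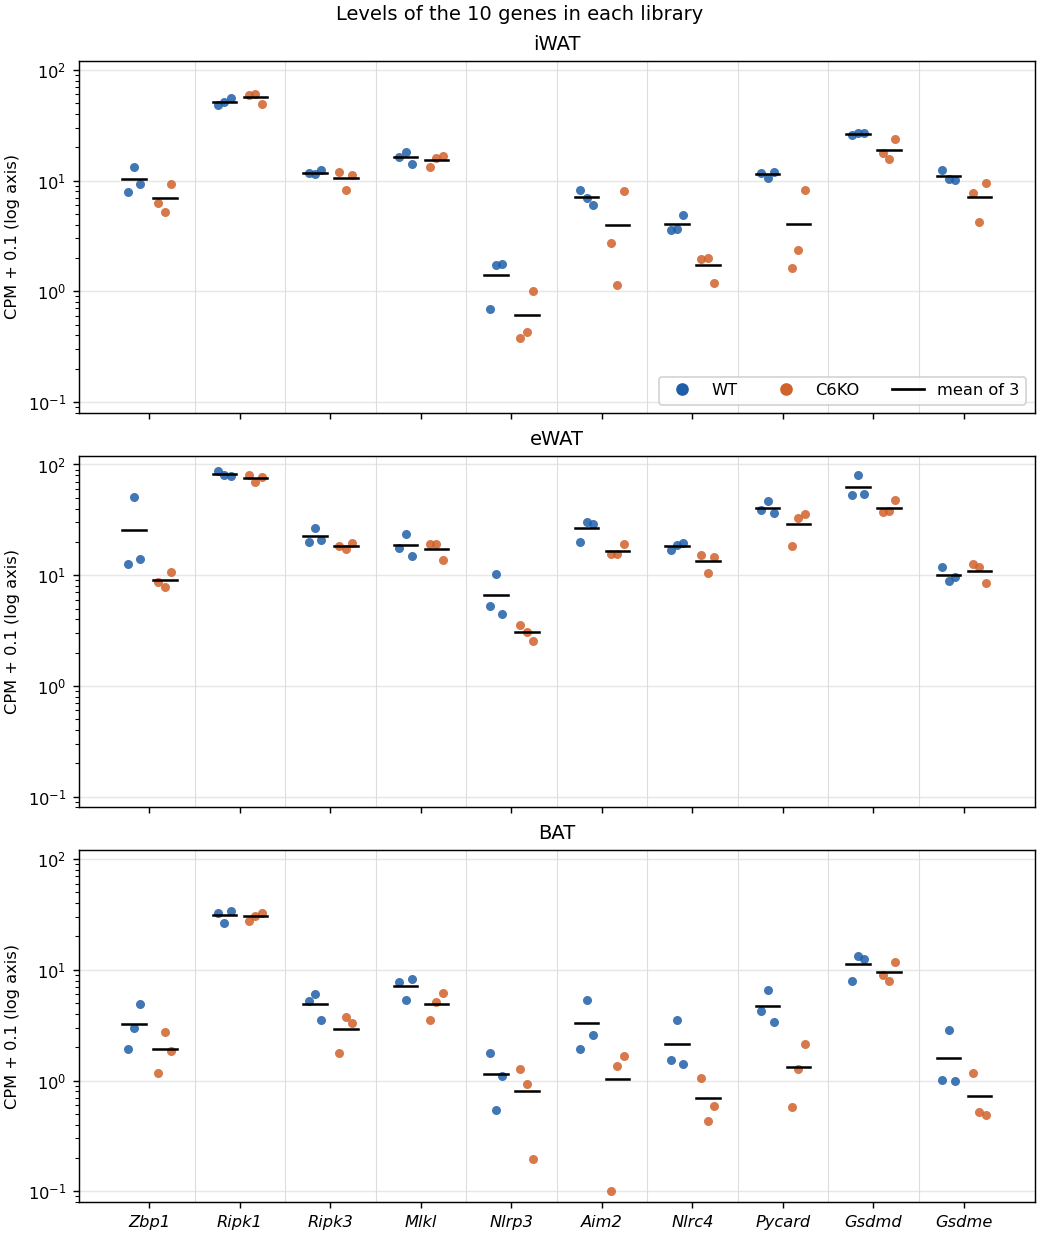
CPM plus 0.1 (log axis) of each of the 10 genes in each library, by depot, with WT in blue, C6KO in orange and the mean of 3 libraries as a black line. Ripk1 sits at the same height in both genotypes in each depot, Pycard is 1.51, 2.24 and 8.10 CPM in the iWAT C6KO libraries against 10.4 to 11.9 in WT, and the lowest point is Aim2 in BAT C6KO-1, which had 0 counts.

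Among the necroptosis genes, Ripk1, the kinase that passes death receptor signals either to survival or to death, had 812, 866 and 998 counts in the iWAT WT libraries and 1066, 1101 and 871 in the C6KO libraries. The groups overlapped, and the log2 fold change was 0.13 ± 0.13 (SE, adjusted p = 0.627). In eWAT, Ripk1 had 1489, 1477 and 1354 counts in WT against 1345, 1285 and 1333 in C6KO, a log2 fold change of -0.12 ± 0.10 (adjusted p = 0.606). Its BAT counts were 252, 301 and 342 in WT against 232, 371 and 335 in C6KO, and the log2 fold change was -0.04 ± 0.16 (adjusted p = 0.941). Without WT-2 the BAT estimate was -0.14. The 95% confidence interval of the Ripk1 difference was -0.15 to 0.42 for iWAT, -0.36 to 0.11 for eWAT and -0.41 to 0.33 for BAT, so a fold change of 1.5 in either direction lies outside each of them.

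Mlkl, the pore-forming end point of necroptosis, was close between the genotypes in the white depots. In iWAT it had 275, 310 and 252 counts in WT against 237, 291 and 293 in C6KO (log2 fold change -0.08 ± 0.17, adjusted p = 0.846). In eWAT the counts were 294, 431 and 252 in WT against 318, 356 and 236 in C6KO (log2 fold change -0.10 ± 0.20, adjusted p = 0.857). Both sets of libraries overlapped, and leaving out 1 library turned the sign of either estimate. Without C6KO-3 the iWAT estimate was -0.17, and without WT-2 the eWAT estimate was 0.11. The BAT counts of Mlkl were 59, 60 and 81 in WT against 29, 61 and 62 in C6KO, also overlapping, and the log2 fold change was -0.53 ± 0.31 (adjusted p = 0.522).

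Ripk3, the kinase that activates MLKL, had 196, 192 and 222 counts in iWAT WT and 213, 150 and 195 in C6KO, which overlap (log2 fold change -0.17 ± 0.19, adjusted p = 0.689). In eWAT it had 334, 485 and 356 counts in WT against 301, 320 and 337 in C6KO. On the CPM scale the eWAT groups did not overlap, at 19.7 to 26.5 in WT and 17.2 to 19.6 in C6KO, but the step between them was small and the log2 fold change of -0.29 ± 0.15 missed the threshold (adjusted p = 0.353). Without WT-2 the eWAT estimate was -0.15. The BAT counts of Ripk3 were 40, 68 and 34 in WT against 14, 44 and 33 in C6KO (log2 fold change -0.76 ± 0.39, adjusted p = 0.443), with C6KO-1 lowest.

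Zbp1, an interferon-induced sensor of Z-form nucleic acid, was uneven among the eWAT WT libraries. There it was counted 211, 925 and 237 times in WT against 144, 145 and 184 times in C6KO. The groups did not overlap, and WT-2 carried about 4 times the level of its companions, at 50.5 CPM against 12.5 and 13.8. The log2 fold change of -1.51 ± 0.63 (adjusted p = 0.305) was -0.54 without WT-2 (adjusted p = 0.380). In iWAT, Zbp1 had 133, 226 and 167 counts in WT against 111, 94 and 162 in C6KO, overlapping groups (log2 fold change -0.57 ± 0.29, adjusted p = 0.363). Without C6KO-3 the iWAT estimate of Zbp1 was -0.86. Its BAT counts were 14, 33 and 48 in WT against 9, 32 and 18 in C6KO (log2 fold change -0.79 ± 0.48, adjusted p = 0.539).

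Pycard, the adaptor that links inflammasome sensors to caspase-1, was the member with the largest estimate in iWAT and BAT. In iWAT it had 196, 178 and 214 counts in WT against 27, 41 and 143 in C6KO. C6KO-1 and C6KO-2 were far below every WT library and C6KO-3 was only a little below, so the groups did not overlap but the spread within C6KO was wide. The log2 fold change was -1.52 ± 0.57 (adjusted p = 0.256 in edgeR and 0.0464 in DESeq2), and without C6KO-3 it was -2.61 (edgeR adjusted p = 0.000742). In BAT, Pycard had 32, 74 and 33 counts in WT against 4, 14 and 21 in C6KO. The groups did not overlap, and the log2 fold change was -1.90 ± 0.52 (adjusted p = 0.133 in edgeR and 0.0337 in DESeq2). Without BAT WT-2, the library rich in muscle markers, it was -1.56 (adjusted p = 0.252). In eWAT the counts were 654, 860 and 619 in WT against 302, 615 and 608 in C6KO, where C6KO-1 alone was far below WT (log2 fold change -0.49 ± 0.24, adjusted p = 0.344).

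Among the sensors, Nlrc4, which responds with NAIP proteins to bacterial flagellin and secretion needles, had no overlap between the genotypes in any depot, C6KO being the lower. The iWAT counts were 59, 61 and 86 in WT against 33, 35 and 19 in C6KO (log2 fold change -1.29 ± 0.36, adjusted p = 0.168 in edgeR and 0.0378 in DESeq2). Unlike Pycard, Nlrc4 was lowest in C6KO-3, and leaving out any iWAT library kept the estimate between -1.43 and -1.09. The eWAT counts were 287, 340 and 334 in WT against 251, 195 and 250 in C6KO (log2 fold change -0.46 ± 0.17, adjusted p = 0.194). In BAT, with only 11, 39 and 13 counts in WT against 8, 4 and 5 in C6KO, the log2 fold change was -1.84 ± 0.60 (adjusted p = 0.209), and it was -1.24 without WT-2. In the fit of all 18 libraries, Nlrc4 in BAT was called, where 3.31% of all genes were.

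Aim2, a sensor of cytosolic double-stranded DNA, had its smallest unadjusted p in eWAT. There it was counted 339, 551 and 497 times in WT against 258, 287 and 326 times in C6KO, without overlap (log2 fold change -0.67 ± 0.18, adjusted p = 0.0886 in edgeR and 0.0248 in DESeq2). In iWAT it had 137, 117 and 107 counts in WT against 47, 19 and 139 in C6KO. C6KO-3 lay within the WT range while the other C6KO libraries lay far below it, so the log2 fold change of -0.86 ± 0.62 (adjusted p = 0.527) became -1.94 without C6KO-3 (adjusted p = 0.0209). BAT held 14, 60 and 25 Aim2 counts in WT against 0, 15 and 16 in C6KO. Although 15 and 16 counts exceed the lowest WT count, the CPM did not overlap (1.81 to 5.29 in WT, 0 to 1.56 in C6KO), and the log2 fold change was -1.74 ± 0.85 (adjusted p = 0.434), or -1.15 without WT-2 (adjusted p = 0.591).

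Pycard and Aim2 also share a short sequence upstream of their start sites, which is why their promoters are shown. The 250 bases before the start were read from RefSeq (GRCm38.p6) for the 8 members with an entry, and 4 motifs were searched on both strands. Zbp1 and Gsdmd had no entry and were not searched. GAGGAAGT, a core that the myeloid and lymphoid factor PU.1 and other ETS factors bind, occurs in Aim2 and Pycard and in 2.44% of all 32851 promoter windows. GAAANNGAA, a core of the interferon-stimulated response element, occurs in none of the 8 members searched and in 7.13% of windows. GGGANTTTC, a core of NF-kappaB sites, occurs in Aim2, 154 to 146 bases before the start, and in 0.941% of windows. A form of this motif longer by 1 letter, searched earlier, had no match in Aim2 or in any other member searched, so the match rests on the shorter form. TTCNNNGAA, the element bound by STAT factors, occurs in a window of Ripk1 and in 7.02%. The motifs do not overlap in these windows. In the sequences, given 5′ to 3′ on the strand of the gene, capitals mark GAGGAAGT or its reverse complement. The Pycard window is chr7:127993868-127994117 (minus strand) and the Aim2 window is chr1:173420354-173420603 (plus strand).
Pycard: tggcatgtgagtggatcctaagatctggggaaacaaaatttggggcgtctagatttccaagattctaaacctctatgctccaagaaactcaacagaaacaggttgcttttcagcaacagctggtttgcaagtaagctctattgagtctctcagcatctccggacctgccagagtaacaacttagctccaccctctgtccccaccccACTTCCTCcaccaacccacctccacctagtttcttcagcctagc
Aim2: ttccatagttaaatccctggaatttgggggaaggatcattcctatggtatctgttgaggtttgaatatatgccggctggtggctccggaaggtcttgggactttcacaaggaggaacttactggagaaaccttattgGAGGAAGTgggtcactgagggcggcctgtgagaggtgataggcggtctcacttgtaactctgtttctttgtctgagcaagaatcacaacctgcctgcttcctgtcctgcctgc
The match lies 44 to 37 bases before the start of Pycard and 113 to 106 before that of Aim2, and it describes letters only, not binding.

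Nlrp3, the sensor of potassium efflux and membrane damage, was the least abundant member. In eWAT it had 88, 187 and 74 counts in WT against 58, 55 and 42 in C6KO, without overlap (log2 fold change -1.15 ± 0.35, adjusted p = 0.123 in edgeR and 0.0439 in DESeq2). Without WT-2, the estimate was -0.69 (adjusted p = 0.448). In iWAT, 10, 28 and 30 counts in WT stood against 5, 6 and 16 in C6KO (log2 fold change -1.36 ± 0.66, adjusted p = 0.342), and the estimate without C6KO-3 was -2.09 (adjusted p = 0.106). BAT held 13, 5 and 10 counts in WT against 10, 10 and 1 in C6KO, too few to detect a difference (95% confidence interval of the log2 fold change -2.30 to 1.22). The BAT estimate of -0.54 was -0.92 without WT-2.

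The gasdermins are the pore-forming executors. Gsdmd had 439, 455 and 484 counts in iWAT WT and 316, 284 and 416 in C6KO, all C6KO libraries lying below a narrow WT group (log2 fold change -0.49 ± 0.17, adjusted p = 0.226). Without iWAT C6KO-3 the value was -0.70 (adjusted p = 0.0199). In eWAT the Gsdmd counts were 897, 1454 and 933 in WT against 614, 703 and 814 in C6KO, again without overlap (log2 fold change -0.62 ± 0.18, adjusted p = 0.113 in edgeR and 0.0265 in DESeq2), and WT-2 was the highest library, without which the estimate was -0.40 (adjusted p = 0.334). In BAT, 61, 149 and 124 counts in WT against 75, 94 and 120 in C6KO overlapped (log2 fold change -0.24 ± 0.26, adjusted p = 0.756). Without WT-2 the BAT estimate was -0.11.

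Gsdme had a negative estimate in iWAT and a slightly positive one in eWAT, and neither passed the test. The difference of the iWAT from the eWAT estimate, in the fit of all 18 libraries, was -0.73 ± 0.50 (adjusted p = 0.990). Its iWAT counts were 211, 174 and 179 in WT against 136, 76 and 167 in C6KO, without overlap (log2 fold change -0.62 ± 0.29, adjusted p = 0.336). In eWAT, 200, 159 and 165 counts in WT against 207, 219 and 146 in C6KO overlapped (log2 fold change 0.12 ± 0.20, adjusted p = 0.829). Without WT-2 the eWAT estimate was 0.02. BAT held 7, 31 and 9 counts in WT against 9, 5 and 4 in C6KO, where WT-2 alone was above the others.

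**Figure D2:**
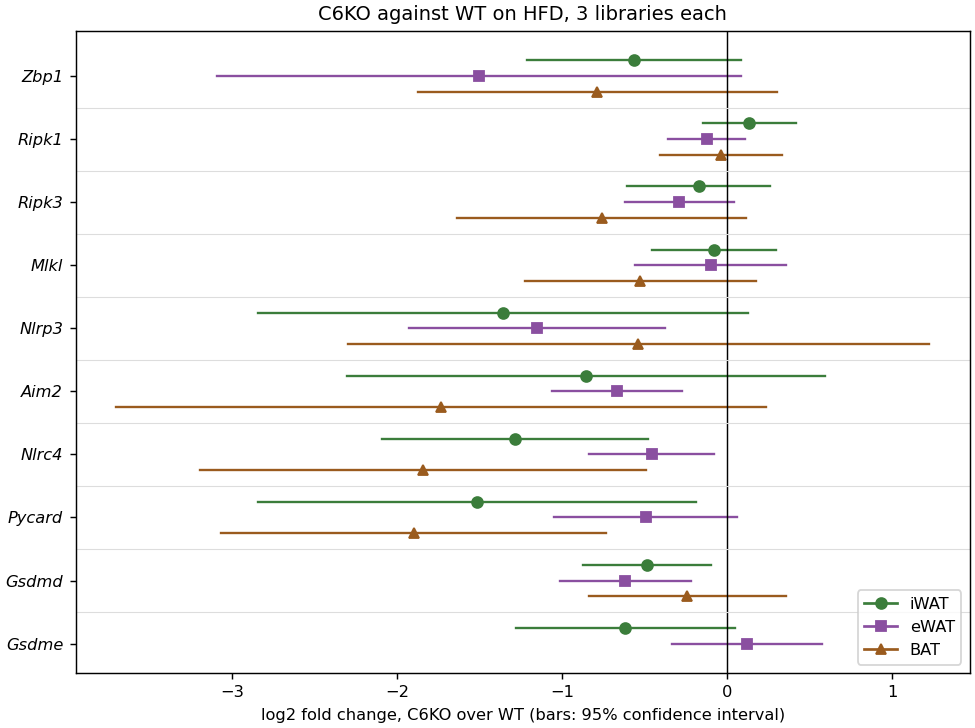
Log2 fold change of C6KO over WT for each gene (rows) in iWAT (circles), eWAT (squares) and BAT (triangles), with 95% confidence intervals from edgeR, 3 libraries a group. Nearly all points are left of 0, the intervals of Ripk1 and Mlkl span 0 in each depot, and Nlrc4 has intervals wholly below 0 in all 3, as do Gsdmd in both white depots, Pycard in iWAT and BAT, and Aim2 and Nlrp3 in eWAT.

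Many of these values moved with 1 library of the depot. Without iWAT C6KO-3, edgeR called 3 of 10 members lower (Gsdmd, Pycard and Aim2), and 6.43% of all genes were then called lower in place of 0.0206%. Without eWAT WT-2, no eWAT member was called and of the 9 estimates below 0, 7 came closer to 0, Mlkl turned above 0 and Ripk1 moved further below it. No member was called in BAT with or without WT-2, and each BAT estimate below 0 stayed below it without WT-2.

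Whether the C6KO difference itself varied between depots was tested as an interaction in a fit of all 18 libraries, over 15866 genes. No member was called for iWAT against eWAT (0% of all genes), iWAT against BAT (0.183%) or eWAT against BAT (0.536%). Among the members, the smallest p was found for eWAT against BAT, where Nlrc4 differed by 1.41 ± 0.53 on the log2 scale (adjusted p = 0.30) and Gsdme by 1.48 ± 0.61 (adjusted p = 0.364). Without BAT WT-2 these differences were 0.83 (adjusted p = 0.540) and 0.74 (adjusted p = 0.682). Gsdme had not passed the low-count filter of the BAT fit, so its values against BAT rest on few BAT counts. With all libraries, Nlrc4 and Gsdme were the 2 of 10 members at an unadjusted p under 0.05, where 11.2% of all genes reached it. No member did so for iWAT against eWAT (5.48% of all genes) or iWAT against BAT (9.93%). Pycard, with log2 fold changes of -1.52 in iWAT and -0.49 in eWAT, differed by -1.02 ± 0.66 (adjusted p = 0.977). Without iWAT C6KO-3, Pycard was called in that comparison (-2.10, adjusted p = 0.0392), where 1.49% of all genes then were.

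Between depots, most members differed. In WT, 6 of 10 members were higher in eWAT than in iWAT by the call rule (12.8% of all genes were called higher), namely Nlrp3, Nlrc4, Aim2, Pycard, Gsdmd and Ripk3. The log2 differences were 2.17 ± 0.62 for Nlrp3, 2.06 ± 0.33 for Nlrc4, 1.77 ± 0.60 for Aim2, 1.69 ± 0.47 for Pycard, 1.08 ± 0.21 for Gsdmd and 0.78 ± 0.23 for Ripk3, with adjusted p from 0.000197 to 0.0345. All 3 sensors and the adaptor were thus among those higher in eWAT, while Mlkl (0.05 ± 0.23, adjusted p = 0.90) and Gsdme (-0.27 ± 0.36, adjusted p = 0.602) did not pass. Ripk1 had a small adjusted p of 0.00424, but its log2 difference of 0.53 ± 0.13 is under a fold change of 1.5, and Zbp1 (1.18 ± 0.47) missed at an adjusted p of 0.0643, its difference being 0.23 without eWAT WT-2. Only Gsdmd, Pycard and Nlrc4 kept their call without iWAT WT-1, and likewise without eWAT WT-2. The share of all genes called was not computed for those fits. Nlrp3 is listed under another transcript in the iWAT table than in the other tables, and Mlkl under another in BAT, so their differences between those depots also hold the change of transcript.

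BAT was the lowest depot. All 10 members were lower in BAT than in eWAT in WT (23.6% of all genes were called lower), with log2 differences from -2.87 ± 0.35 for Nlrc4 to -1.13 ± 0.24 for Mlkl and -1.13 ± 0.13 for Ripk1. All 10 were called without BAT WT-2, and likewise without eWAT WT-2, where the Zbp1 difference of -2.72 became -1.77. Against iWAT, the members lower in BAT were 6 of 10 (18.7% of all genes): Gsdme at -2.69 ± 0.41, Zbp1 at -1.54 ± 0.50, Ripk3 at -1.15 ± 0.24, Gsdmd at -1.13 ± 0.22, Mlkl at -1.08 ± 0.24 and Ripk1 at -0.60 ± 0.13. The size of the Gsdme difference is uncertain, since Gsdme had too few counts to pass the filter of the BAT fit. Pycard (-1.16 ± 0.50, adjusted p = 0.0692), Nlrc4 (-0.81 ± 0.35, adjusted p = 0.0646), Aim2 (-0.99 ± 0.63, adjusted p = 0.214) and Nlrp3 (-0.23 ± 0.66, adjusted p = 0.795) did not pass. Which members were called rested in part on BAT WT-2, the library rich in muscle markers. Without it, 5 members were called, namely Ripk3, Mlkl, Gsdmd, Gsdme (-3.44) and Nlrc4 (-1.39, adjusted p = 0.00405), while Zbp1 (-1.45, adjusted p = 0.0636) and Ripk1 (-0.48, under a fold change of 1.5) were not, and the Nlrp3 estimate was 0.17. With the replicate number as a block, Pycard was called (-1.19, adjusted p = 0.00501), and DESeq2 called Pycard and Nlrc4. The share of all genes called was not computed for these alternative fits, so their counts of members have no background.

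Levels can be compared between genes only per length of transcript. In iWAT of WT mice the order of mean level, in CPM per kb, was Gsdmd at 15.2 ± 0.34, Ripk1 at 10.9 ± 0.82, Mlkl at 8.08 ± 1.07, Ripk3 at 6.06 ± 0.28, Pycard at 5.35 ± 0.34, Zbp1 at 5.17 ± 1.46, Gsdme at 5.16 ± 0.64, Aim2 at 2.78 ± 0.42, Nlrc4 at 1.04 ± 0.19 and Nlrp3 at 0.335 ± 0.16 (SD, n = 3). Pycard, Zbp1 and Gsdme overlapped their neighbours in that order and the others did not. In eWAT, Gsdmd led again at 32.0 ± 7.40 CPM per kb, with Pycard second at 17.3 ± 2.33 and Ripk1 at 15.8 ± 1.04, whose ranges overlapped. From Pycard down to Mlkl (8.33 ± 1.99) each eWAT gene overlapped the next, and Nlrp3 was lowest at 1.49 ± 0.71. In BAT, Ripk1 at 7.21 ± 1.11 and Gsdmd at 6.90 ± 1.60 CPM per kb overlapped each other at the top, Mlkl followed at 3.87 ± 0.92, and Nlrp3 was again lowest at 0.289 ± 0.18.

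**Figure D3:**
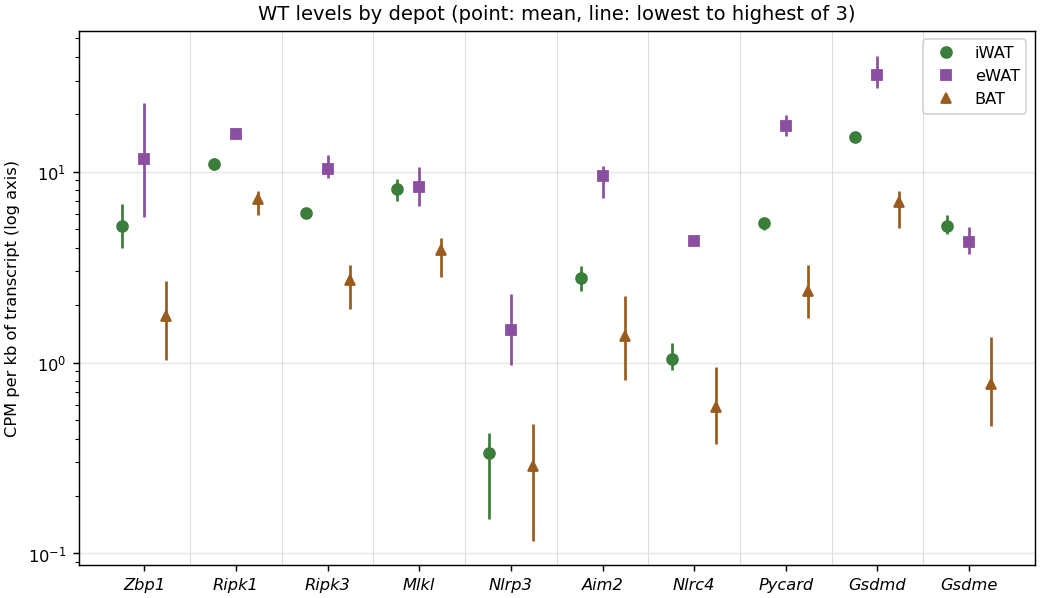
WT level of each gene in CPM per kb of transcript (log axis) in iWAT (circles), eWAT (squares) and BAT (triangles), as the mean of 3 libraries with a line from the lowest to the highest. The eWAT mean is the highest for 9 of the genes, Gsdme is the exception, the eWAT and iWAT lines overlap for Zbp1, Mlkl and Gsdme, the BAT and iWAT lines for Nlrp3 and Nlrc4, and each gene has its lowest mean in BAT.

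The wider pathways were examined with 3 gene lists. Of 43 genes of the necroptosis and death receptor pathway, 41 were tested in BAT, 42 in iWAT and 43 in eWAT, and edgeR and DESeq2 called none in any depot. At an unadjusted p under 0.05, each white depot had 1 lower and 2 higher, and BAT had 5 lower and 0 higher. In the white depots the list thus had smaller shares in both directions than all genes (9.29% lower and 7.25% higher in iWAT, 7.82% and 9.81% in eWAT), and in BAT 8.64% of all genes were lower and 4.56% higher. The list median log2 fold change was 0.02 for iWAT and -0.04 for eWAT as for BAT. The smallest p in iWAT belonged to Hsp90aa1, a chaperone of RIPK1 and RIPK3 (63.2 ± 17.4 CPM in C6KO, 42.8 ± 1.17 in WT, adjusted p = 0.202), the phosphatase gene Ppm1b (0.36 ± 0.13 log2, adjusted p = 0.232) and Tnfaip3, which encodes the ubiquitin editor A20 (-0.43 ± 0.16, adjusted p = 0.236). In eWAT they belonged to the ubiquitin ligase gene Peli1 (-0.41 ± 0.11, adjusted p = 0.0885), the death receptor gene Fas (0.38 ± 0.14, adjusted p = 0.187) and Ppm1b (0.28 ± 0.12, adjusted p = 0.245). In BAT they belonged to the lipopolysaccharide receptor gene Tlr4 (-0.64 ± 0.15, adjusted p = 0.0955), the ubiquitin ligase gene Birc3 (-0.76 ± 0.19, adjusted p = 0.10) and Tnfaip3 (-0.89 ± 0.25, adjusted p = 0.139).

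Of 41 listed inflammasome sensors and regulators, 30 were tested in BAT, 34 in iWAT and 35 in eWAT. None was called by edgeR, but 12 in iWAT, 11 in eWAT and 8 in BAT were lower at an unadjusted p under 0.05, and 2 were higher, both in iWAT, where the shares of all genes lower were 9.29%, 7.82% and 8.64%. DESeq2 called 4, 3 and 2 of them lower, against 3.53%, 1.22% and 2.62% of all genes, and none higher. The medians were -0.31, -0.36 and -0.15 on the log2 scale. In iWAT the leading genes were Nlrp1a, an inflammasome sensor (0.482 ± 0.11 CPM in C6KO, 2.46 ± 0.44 in WT, DESeq2 adjusted p = 0.00202), and the ATP-gated channel genes P2rx4 (-0.73 ± 0.17 log2, edgeR adjusted p = 0.154) and P2rx7 (-1.0 ± 0.25, adjusted p = 0.165). In eWAT they were Nlrc3, a NOD-like receptor (-0.93 ± 0.19, adjusted p = 0.0571), Naip6 (-0.79 ± 0.18, adjusted p = 0.0623) and P2rx4 (-0.36 ± 0.10, adjusted p = 0.0938). Naip6 shares near-identical sequence with other Naip genes, so its reads are uncertain. In BAT they were Irf8, a transcription factor of myeloid cells (-1.23 ± 0.27, adjusted p = 0.0742), Tmem173, which encodes STING (-0.95 ± 0.21, adjusted p = 0.0748), and the guanylate-binding protein gene Gbp2 (-0.68 ± 0.19, adjusted p = 0.145).

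The list of pyroptosis executors and products, meaning inflammatory caspases, further gasdermins and interleukin-1 family genes, had the only edgeR calls of these 3 lists, both in BAT, where 1.24% of all genes were called. Lgals3, a lectin of damaged membranes and of macrophages, fell from 124 ± 27.3 CPM in WT to 17.3 ± 8.14 in C6KO (log2 fold change -2.85 ± 0.39, adjusted p = 0.0271). Casp12, a caspase of the endoplasmic reticulum, fell from 14.2 ± 3.52 to 4.72 ± 1.23 CPM (-1.59 ± 0.28, adjusted p = 0.0318). Of the 13 genes of this list tested in BAT 2 were thus called, and of 20 in iWAT and 19 in eWAT none, with 6 lower and 3 higher in iWAT and 4 lower in eWAT at an unadjusted p under 0.05. By that rule 9.29% of all genes were lower and 7.25% higher in iWAT, and 7.82% were lower in eWAT. Casp1, the protease that cleaves gasdermin D and pro-interleukin-1β, had the smallest p of the list in both white depots. It stood at 13.4 ± 2.70 CPM in C6KO against 24.9 ± 2.36 in WT in iWAT (log2 fold change -0.90 ± 0.18, adjusted p = 0.144 in edgeR and 0.00286 in DESeq2). In eWAT it stood at 40.9 ± 4.69 against 62.6 ± 12 CPM (-0.61 ± 0.15, adjusted p = 0.0749 and 0.0120), and in BAT at 2.63 ± 0.64 against 6.03 ± 1.08 (-1.19 ± 0.32, adjusted p = 0.135 and 0.0849). Other leading genes were Elane, the neutrophil elastase gene, at 1.5 ± 0.80 CPM in C6KO against 0.174 ± 0.10 in WT in iWAT (edgeR adjusted p = 0.154, DESeq2 adjusted p = 0.0138), the receptor gene Il1r1 in iWAT (-0.41 ± 0.11, edgeR adjusted p = 0.166), and in eWAT the non-canonical inflammasome caspase gene Casp4 (-0.54 ± 0.19, adjusted p = 0.174) and the cytokine gene Il18 (-0.64 ± 0.24, adjusted p = 0.200).

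Cell type markers moved alongside these genes. Of 15 macrophage markers (among them Adgre1, Cd68, Csf1r and C1qa), 13 in iWAT, 13 in eWAT and 11 in BAT were lower at an unadjusted p under 0.05, with 0, 1 and 5 called. Of all genes, 9.29%, 7.82% and 8.64% were lower by that rule, and 0.0275%, 0.746% and 1.24% were called in either direction. Their summed level was 2383 to 2765 CPM in iWAT WT and 640 to 1784 in C6KO. In eWAT it was 8844 to 11190 against 5470 to 7325 CPM, and in BAT 921 to 1175 against 399 to 572. None of the 15 was at 0 in any depot. Dendritic cell markers summed to 118 to 122 CPM in iWAT WT and 34.8 to 73.6 in C6KO, to 497 to 559 and 326 to 419 in eWAT, and to 37.0 to 44.9 and 22 to 24.7 in BAT. Most of that sum was Itgax, which macrophages of fat also express, at 22.9 ± 16.6 CPM in iWAT C6KO against 89.1 ± 5.0 in WT. Itgax was the 1 of 8 dendritic cell markers lower in iWAT at an unadjusted p under 0.05, the Zbtb46 estimate was above 0 (0.52 ± 0.29 log2, adjusted p = 0.405), and in BAT the median log2 fold change of the 4 tested was 0.13. T cell markers summed to 45.0 to 65.5 CPM in iWAT WT against 10.9 to 37.4 in C6KO, to 206 to 255 against 150 to 189 in eWAT, and to 13.9 to 78.8 against 3.06 to 7.40 in BAT. Most of the iWAT WT sum was Il7r, at 9.16 ± 7.86 CPM in C6KO against 40.1 ± 2.31 in WT. Il7r was the 1 of 9 T cell markers lower in iWAT at an unadjusted p under 0.05. In eWAT 1 of 9 was lower by that rule, and all 9 estimates were negative in both white depots. Adipocyte markers were the other way round in the white depots, at 28830 to 32800 CPM in iWAT WT and 39170 to 42460 in C6KO, and at 15310 to 18230 and 20130 to 26510 in eWAT. Of 8 adipocyte markers, edgeR called 0 in iWAT and 2 in eWAT, both higher. Mast cell markers in eWAT summed to 253 to 375 CPM in WT against 125 to 190 in C6KO, and 3 of 7 were called lower (Cpa3, Cma1 and Mrgprb1). Adipocyte progenitor markers in iWAT summed to 2324 to 2383 CPM in WT against 1186 to 1771 in C6KO, and none was called. Endothelial markers in eWAT stood higher in C6KO, at 801 to 1013 CPM against 563 to 660 in WT, with none called by edgeR. At an unadjusted p under 0.05, 5 of 6 were higher, where 9.81% of all genes were. Hepatocyte markers, low in eWAT, summed to 3.66 to 10.4 CPM in WT against 23.8 to 71.2 in C6KO, with 1 called higher. Of 8 neutrophil markers 4 were tested in each depot and none was called, and Ly6g was at 0 in every library. The part of these cell types in the values of the members was not tested.

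**Figure D4:**
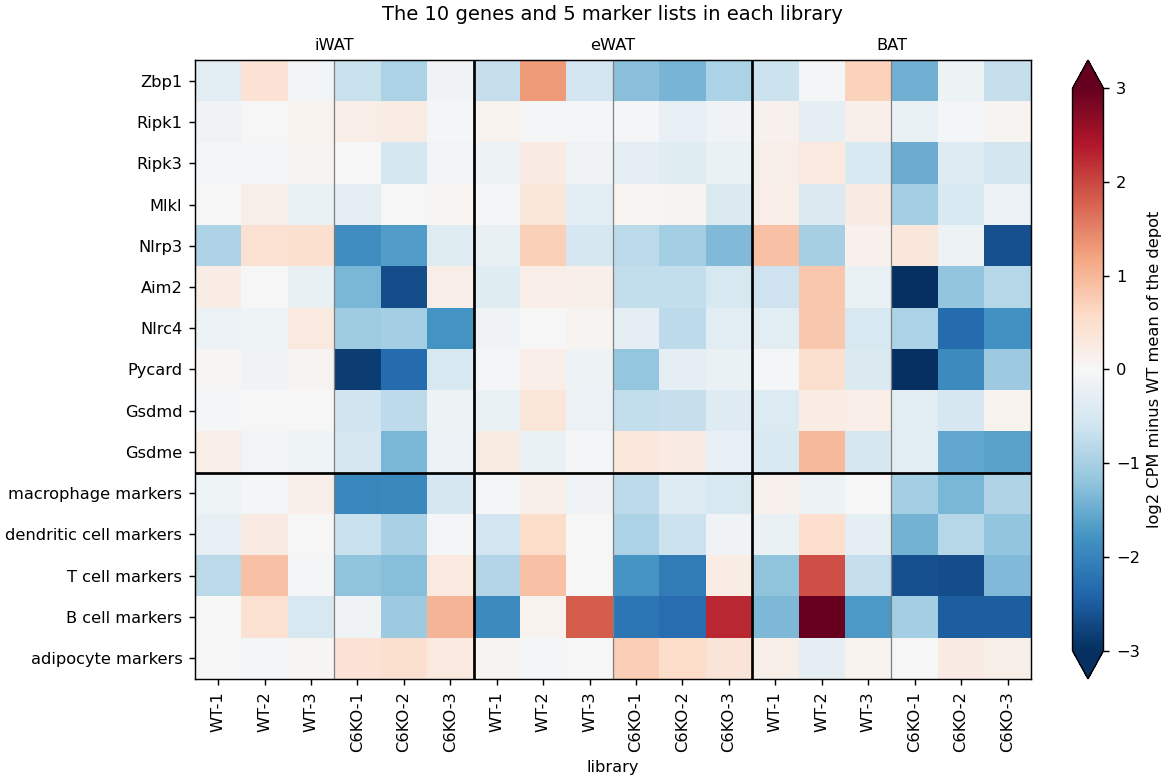
Difference of each library (columns) from the WT mean of its depot in log2 CPM, for the 10 genes (upper rows) and the mean of 5 marker lists (lower rows), with red above and blue below WT. In iWAT, C6KO-1 and C6KO-2 are darkest blue for Pycard and the macrophage markers and C6KO-3 is pale in both, whereas the Ripk1 row is pale throughout.

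Member levels followed the macrophage markers to very different degrees. Over the 18 libraries, with each depot centred on its own mean, the Pearson correlation of log2 CPM with the mean of the 15 markers was 0.89 for Pycard, 0.71 for Gsdmd, 0.63 for Nlrc4, 0.61 for Nlrp3, 0.60 for Aim2, 0.56 for Gsdme, 0.53 for Zbp1, 0.49 for Ripk3, 0.43 for Mlkl and -0.20 for Ripk1. With each genotype and depot centred separately, so that the genotype difference is taken out, it was 0.70 for Pycard, 0.53 for Gsdmd and -0.33 for Nlrc4. For the other members it was 0.34 for Nlrp3, 0.27 for Aim2, 0.23 for Zbp1, 0.22 for Mlkl, 0.18 for Gsdme, 0.05 for Ripk3 and -0.31 for Ripk1. Other marker lists gave higher depot-centred values for several members. The mean of the dendritic cell markers gave 0.79 for Ripk3, 0.75 for Zbp1 and 0.75 for Aim2, that of the T cell markers 0.75 for Gsdmd (0.76 with genotype also taken out), and that of the progenitor markers 0.69 for Nlrc4. Pycard, highest with the macrophage markers, also had 0.81 with the dendritic cell and 0.78 with the progenitor markers. Gsdmd had -0.83 with the adipocyte markers (-0.59 with genotype also taken out). Ripk1 had 0.28 with them (0.77 with genotype also taken out) and Mlkl 0.05 (0.56). Gsdme had -0.45 (-0.60) and Nlrc4 -0.63 (-0.52). These points share libraries, depth and, through the depot, tissue, and the values are a description without a test.

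**Figure D5:**
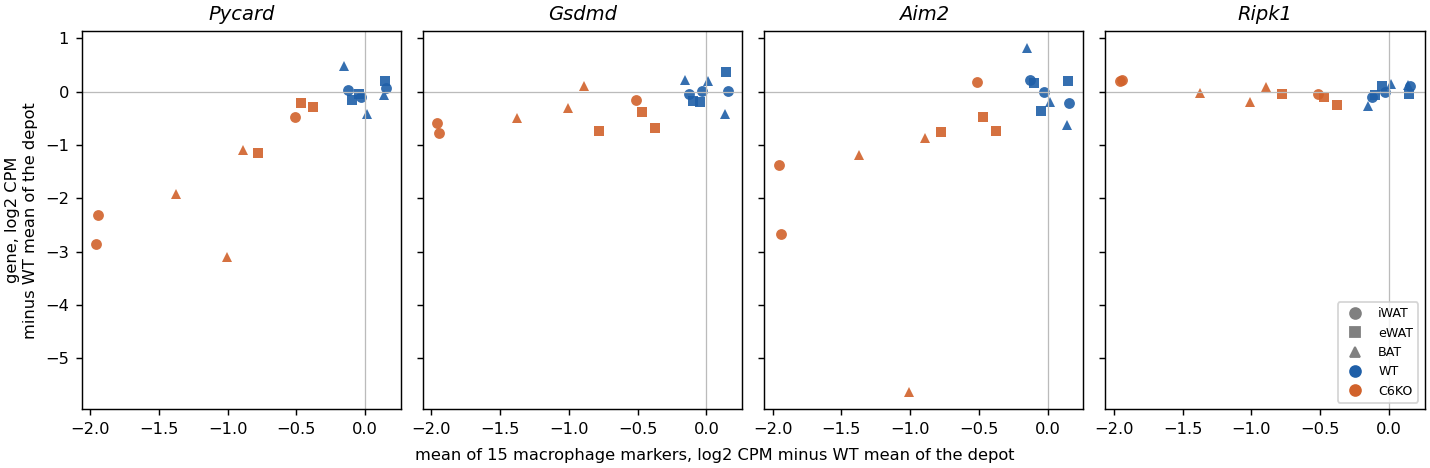
Log2 CPM of Pycard, Gsdmd, Aim2 and Ripk1 against the mean of 15 macrophage markers, each as the difference from the WT mean of the depot, for 18 libraries (circles iWAT, squares eWAT, triangles BAT, WT blue, C6KO orange). Pycard is low where the markers are low, Ripk1 stays near 0 over the whole width, and the lowest Aim2 point is BAT C6KO-1 with 0 counts, whose height is set by the prior count of 1.

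The genes most like each member were sought over the same 18 libraries among 15866 genes, by the depot-centred correlation. Pycard was most like Selplg (0.98), the selectin ligand of leukocytes, Lrmp (0.97) and Slfn2 (0.96). Aim2 was most like Cdca8 (0.96), Dtl (0.94) and Ncaph (0.92), which are genes of dividing cells, and Ripk3 was most like Spag5 (0.90), Jaml (0.90) and Kntc1 (0.88), of which Spag5 and Kntc1 also act in mitosis. Zbp1 was most like Ifi203 (0.87), Gbp2 (0.87) and Synj1 (0.86), of which Ifi203 and Gbp2 are interferon-inducible, and Mlkl was most like the interferon-inducible Ifi211 (0.87), then Scfd1 (0.86) and Ptcd3 (0.84). Gsdmd was most like Rps6ka1 (0.94), Samhd1 (0.92) and D17H6S56E-5 (0.91), and Gsdme like Tnfaip2 (0.93), Csf2rb2 (0.91) and Kpna3 (0.90). Nlrp3 was most like Lamp2 (0.90), Hgf (0.88) and the chemokine gene Ccl4 (0.88). Nlrc4 was most like Gpr85 (0.90), Nuak2 (0.89) and Txndc16 (0.88), and Ripk1 like Smc6 (0.91), Zfp931 (0.86) and Ccar1 (0.83). With genotype also taken out, the likeness of Aim2 to Cdca8 was 0.95 and that of Nlrc4 to Gpr85 was 0.57. In BAT C6KO-1, Aim2 had 0 counts and lay at -5.63 log2 from the WT mean of the depot, against -2.67 for its next lowest library. The weight of this 1 point in the Aim2 correlations, here and with the marker lists, was not tested.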

How the data were processed

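The authors mapped the reads to mm10 with STAR and made the deposited raw counts, 1 column per library and 1 table per depot, with HOMER by summing exonic reads over 1 transcript per gene. The version of the annotation and the use of strand are not given in the sources used here. All 18 count columns were used as deposited, and the tables list a different transcript for 2619 genes, Nlrp3 and Mlkl among them. C6KO was compared with WT in each depot, 3 against 3, with the quasi-likelihood test of edgeR 4.0.16 in R 4.3.3 (TMM scaling, genes kept by filterByExpr, Benjamini-Hochberg adjustment over all genes tested, replicates unpaired), and depots with a fit of all 18 libraries. All adjusted p are from edgeR unless DESeq2 (1.42.0) is named. The scripts were tested on simulated data. The members and gene lists were chosen with earlier results of these data known. The promoter motifs were chosen after the expression results had been seen. The interferon and NF-kappaB motifs were shortened by 1 letter, because of a formatting limit, after the longer forms had been searched. Those longer forms had matched no member with a promoter entry. All 10 members and Casp6 are named, with, from each pathway list, the genes called and the 3 with the smallest p per depot, and the 3 genes most like each member. Alternatives were DESeq2, other scalings and filters, a replicate block and leaving out each library. Whether same-numbered libraries of different depots share an animal is not given in the sources used here, so p-values between depots treat them as separate. No difference of the totals was corrected beyond scaling, and the precision of low genes is set by counting error and the 3 libraries a group.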

Additional observations from a re-analysis of the deposited data

How the results depend on the processing

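Under the alternatives, 1251 of 1324 values of the members kept their direction and their side of the threshold, 16 lost a call, 24 gained one and 33 changed sign. The cause was not tested for any of them. DESeq2 called 3 members in eWAT, 2 in iWAT and 1 in BAT, and edgeR 0. Using all 18 libraries in 1 fit called 1 in BAT (Nlrc4, where 3.31% of all genes were called). Asking for at least 10 counts in every library left 4 members testable, of which 2 were higher in eWAT than iWAT in WT and 4 lower in BAT than eWAT. The share of all genes called was not computed for this filter. Leaving out 1 library in turn gave 0 to 3 called members in iWAT (3 without C6KO-3), 0 to 1 for iWAT against eWAT as an interaction (1 without iWAT C6KO-3) and 3 to 7 for eWAT against iWAT in WT (3 without iWAT WT-1 or without eWAT WT-2). Among the fits that left out 1 library, the share of all genes called was computed only for those without iWAT C6KO-3. Libraries of WT and C6KO with the same number did not deviate together in each depot. The mean correlation of their deviations was 0.05 for iWAT, 0.07 for eWAT and -0.26 for BAT, against -0.02, -0.03 and 0.13 for other numbers. Between depots of one genotype, it was 0.10 for iWAT and eWAT (-0.0649 to 0.22), 0.0531 for iWAT and BAT (0.0189 to 0.0732) and 0.0117 for eWAT and BAT, against -0.0477, -0.0266 and -0.00585. In none of these sets was every pair over 0.1, so the number was not taken to pair the libraries. Deviations were centred within each group of 3. The values given for other numbers therefore largely follow from the same-number values and are no separate baseline. With the replicate block, 1 member was called in eWAT (Aim2, where 2.78% of all genes were called), the interaction of Mlkl for iWAT against eWAT went from 0.02 to -0.000486, Pycard was called for BAT against iWAT in WT (-1.19), and no other count of members called moved by over 1.5 times. Several values changed sign when 1 library was left out, and not all of them were near 0. With all libraries, the interaction of iWAT against eWAT was 0.93 for Zbp1. That of iWAT against BAT was 0.87 for Aim2 and 0.38 for Pycard, and that of eWAT against BAT was -0.71 for Zbp1. On the log2 scale, C6KO against WT ranged from -0.17 to 0.0153 for Mlkl in iWAT, -0.24 to 0.11 for Mlkl in eWAT and -0.14 to 0.0766 for Ripk1 in BAT. The interaction of iWAT against eWAT ranged from -0.19 to 0.16 for Mlkl, -0.93 to 0.0803 for Nlrp3, -1.26 to 0.26 for Aim2, -0.0764 to 0.26 for Gsdmd, -0.0195 to 1.26 for Zbp1 and -0.021 to 0.26 for Ripk3. That of iWAT against BAT ranged from -0.21 to 0.60 for Zbp1, -0.69 to 0.93 for Pycard and -0.20 to 1.37 for Aim2, and that of eWAT against BAT from -1.14 to 0.24 for Zbp1 and -0.16 to 0.0454 for Ripk1. In WT, eWAT against iWAT ranged from -0.16 to 0.19 for Mlkl and BAT against iWAT from -0.76 to 0.17 for Nlrp3. Depth limits BAT most, where Gsdme, Nlrp3 and Nlrc4 had few counts.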
